A study of Homo sapiens with 6 samples.

Results

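The genes described here are the cellular sensors of double-stranded RNA and their nearest partners: DDX58 (also named RIGI, encoding RIG-I), IFIH1 (encoding MDA5), DHX58 (encoding LGP2), their adaptor MAVS, and TLR3, ADAR, EIF2AK2 (encoding PKR), ZBP1, DDX60 and DDX60L. They were taken by gene symbol, as a set proposed with earlier results of these data known, and all 10 were found among the 62492 genes listed for each library. RNA-seq of polyadenylated RNA had been made from HCT116 cells, an established human colorectal cancer line labelled wild type. Of the 6 libraries, 3 came from cells transfected with a control siRNA duplex (siControl) and 3 from cells transfected with an siRNA against NONO (siNONO). All cells received siRNA at 20 nM with the same lipid reagent, so the controls carried a transfected duplex too. The study gives both strands of the siNONO duplex, written without overhangs, but only a catalogue entry for the control duplex. Whether the duplexes were alike in length or ends is thus not known here. Each group holds 1 library in each of Sets 1, 2 and 3, which the series describes as biological replicates. The study lists a single siNONO duplex, so the loss of NONO and the duplex itself cannot be told apart in these 6 libraries. By qPCR in NONO knockout cells, the study also reported lower type I interferon response genes where wild-type NONO was put back. Those cells are not among these libraries. The hour of harvest for sequencing is not given in the sources used here.

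Cells read RNA duplexes that are long or lack the normal cap, as made by many viruses, as a sign of infection. RIG-I and MDA5 are cytosolic helicases that bind such duplexes and pass the signal through MAVS, a protein of the mitochondrial outer membrane, to the kinases and transcription factors that switch on type I interferon genes. LGP2 is a related helicase without the signalling domains. TLR3 does not act in the cytosol: it senses duplexes inside endosomes and signals through TICAM1 (also named TRIF). PKR halts translation by phosphorylating eIF2 once it binds duplex RNA, ADAR edits adenosines in the cell's own duplexes and keeps them from being sensed, and ZBP1 binds left-handed duplexes and can start cell death. DDX60 is an interferon-inducible helicase proposed to assist RIG-I, and DDX60L is its paralog. Most of these genes are known to be raised by interferon through promoter elements of the ISRE type, in which GAAA repeats stand a short distance apart.

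The promoters of several members hold such repeats, which are shown here as sequence. The levels given later include members without them, and a link between the repeats and the changes was not tested. The RefSeq promoter table (GRCh38.p14, 250 bases before to 50 after the start) held 8 of the 10 genes. The pattern GAAANNGAAA was searched on both strands, with overlapping matches counted. It was present in 5 of the 8 genes, with 3 matches in IFIH1, 2 each in DDX60 and DDX60L and 1 each in TLR3 and EIF2AK2, and in 4.38% of all 27305 genes with a promoter in the table. The letters were not found in the windows of DDX58, MAVS or ADAR. One match for each of the 5 genes is printed with 10 bases on either side, 5′ to 3′, the match in capitals. Each promoter window matched its own chromosome of GRCh37 once, and each stretch lies on the minus strand at the position given. The stretches alone were not searched for elsewhere.
IFIH1, chr2:163175196-163175225: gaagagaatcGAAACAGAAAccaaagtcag
TLR3, chr4:186990296-186990325: cggcactctcGAAAGTGAAAgtaaagcttg
EIF2AK2, chr2:37384110-37384139: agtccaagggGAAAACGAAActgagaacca
DDX60, chr4:169239937-169239966: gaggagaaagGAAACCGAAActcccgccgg
DDX60L, chr4:169401674-169401703: gtggagaaaaGAAACCGAAActaactccct
TLR3 lies on the plus strand, so its match is on the strand opposite to the gene, and the other 4 genes are read from the minus strand. DDX60 and DDX60L hold the same 10 capital letters at a similar distance from their starts, with the first base at -53 and -50.

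A pattern with a single base between the repeats, GAAANGAAA, was added after the promoters had been read. It was present once in the promoters of DDX58, DDX60 and DDX60L and in 3.87% of all genes in the table. In DDX60 and DDX60L it overlaps the longer pattern. The DDX58 stretch, on the minus strand of GRCh37, is as follows.
DDX58, chr9:32526378-32526407: ggtgcggaggGAAACGAAActagcccgagg
A match describes letters only. Binding of a factor was not measured.

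The targeted gene checked the labels. NONO, a nuclear RNA-binding protein of paraspeckles, stood at 363, 330 and 407 TPM in the siControl libraries and at 75.7, 75.5 and 81.7 TPM in the siNONO libraries (TPM is RSEM's level of a gene relative to its transcript length and to the library). Its estimated count was 18.9% of control, a log2 fold change of -2.40 (SE 0.0337, edgeR adjusted p = 2.47e-13). Total counts per library ran from 21765393 to 32659002. Of 8 colon epithelial markers 6 passed the count filter, with summed levels of 3000 to 3150 TPM in siControl and 2830 to 3140 TPM in siNONO, and CEACAM5 was listed at 0 in every library. EPCAM and KRT19 were called higher, by 0.32 and 0.14 on the log2 scale (edgeR adjusted p = 3.52e-06 and 0.00731), and the other 4 were not called. Of the markers of immune, stromal and endothelial cells 4 of the 11 matched genes were tested, with summed levels of 20.9 to 25.8 TPM and 23.2 to 26.0 TPM. COL1A1 made up most of these sums, at a mean of 17.7 TPM in siControl and 17.4 TPM in siNONO. Among the genes not tested, PTPRC, CD3E and DCN were listed at 0 in all siNONO libraries. CD68, a lysosomal protein used as a macrophage marker, rose by 1.40 on the log2 scale (edgeR adjusted p = 1.80e-05), from a mean of 3.66 to 6.25 TPM. The part of such cells in the results was not tested.

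Of the 10 genes, 8 were higher in siNONO cells and none was lower. DDX58 rose 7.08-fold, IFIH1 6.09-fold, DDX60 5.13-fold, DHX58 3.34-fold, TLR3 3.02-fold, EIF2AK2 2.96-fold, and ADAR and DDX60L 1.65-fold each. MAVS, the adaptor that RIG-I and MDA5 share, stood at the same level in both groups, and ZBP1 was all but unread. Of the 10, 9 passed the count filter and were tested, ZBP1 being the exception, so the share is 8 called higher of 9 tested, beside 23.2% of the 17000 genes tested called higher and 23.4% called lower. Called genes with a log2 fold change of 1 or more made up 1.62% of all genes tested, and 6 of the 9 sensor genes were among them. The median log2 fold change was 1.60 over the 9 sensor genes and -0.005 over all genes tested. Each fold is edgeR's estimate from the counts with the Set as a block, and a gene was called where its p, adjusted over all 17000 genes, was 0.05 or lower. These are bulk libraries, in which more cells expressing a gene and more RNA per cell cannot be told apart.

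**Figure D1:**
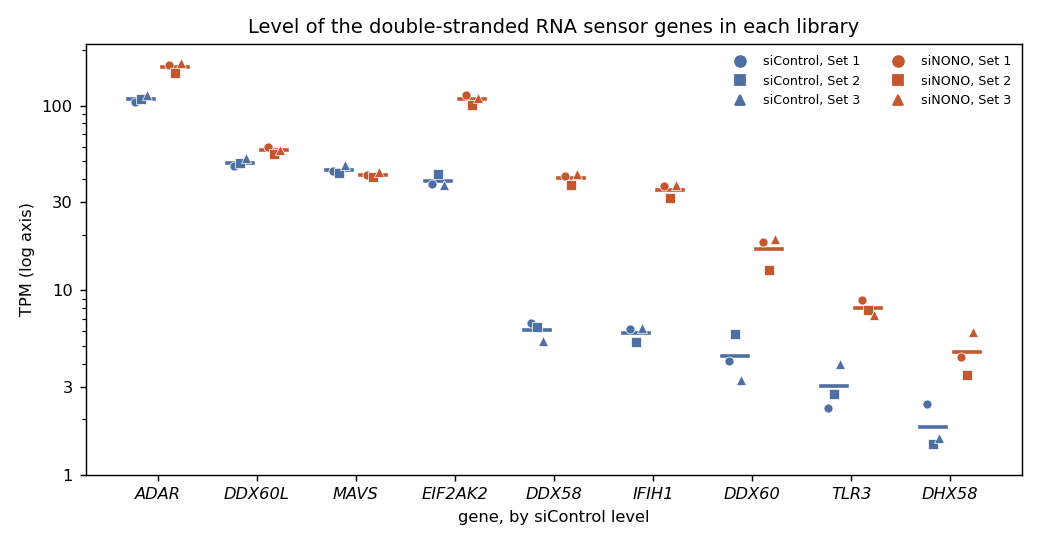
Level of 9 sensor genes in each library, in TPM on a log axis, for siControl (blue) and siNONO (orange), with circles, squares and triangles for Sets 1, 2 and 3 and a bar at each group's mean. ZBP1 is left out because it was listed at 0 TPM in 5 libraries. All siNONO points lie above all siControl points for 8 genes, and MAVS is the exception.

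Per length, the 10 genes differed widely in level before NONO was targeted. In siControl cells ADAR was the most abundant at 109 ± 5.07 TPM (mean ± SD, n = 3, as for the levels that follow), followed by DDX60L at 49.1 ± 2.36, MAVS at 45.0 ± 2.17 and EIF2AK2 at 39.1 ± 2.91. Far lower were DDX58 at 6.07 ± 0.703, IFIH1 at 5.88 ± 0.542, DDX60 at 4.38 ± 1.29, TLR3 at 3.02 ± 0.871 and DHX58 at 1.82 ± 0.514 TPM. Libraries of neighbouring genes overlapped in this order for DDX60L and MAVS, and for each step from DDX58 down to DHX58. The order of neighbours among these 5 low genes is thus not fixed by 3 libraries. Summed over the 10 genes, the level was 263 ± 8.36 TPM in siControl and 475 ± 28.9 TPM in siNONO.

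Shares of that sum went up for some members and down for others. DDX58 took 2.31% ± 0.332 of the summed TPM in siControl and 8.52% ± 0.116 in siNONO, and IFIH1 took 2.24% ± 0.228 and 7.39% ± 0.240 (mean ± SD, n = 3). EIF2AK2 went from 14.9% ± 1.12 to 22.8% ± 0.515 of the sum. MAVS, whose own level barely moved, went from 17.1% ± 0.676 to 8.91% ± 0.394, ADAR from 41.3% ± 0.654 to 34.1% ± 0.458, and DDX60L from 18.7% ± 0.395 to 12.1% ± 0.347. With siNONO the order by level was ADAR, EIF2AK2, DDX60L, MAVS, DDX58, IFIH1, DDX60, TLR3, DHX58 and ZBP1, and the libraries of neighbours overlapped for MAVS and DDX58 only, although DDX58 and IFIH1 were apart by little. In siNONO cells, then, RIG-I mRNA stood at 40.5 ± 2.90 TPM beside 42.2 ± 1.19 TPM for its adaptor.

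RIG-I mRNA was the most strongly raised. DDX58 (ENSG00000107201, chr9:32455300-32526206, minus strand, GRCh37) was at 6.62, 6.32 and 5.28 TPM in the siControl libraries of Sets 1, 2 and 3 and at 41.6, 37.1 and 42.6 TPM in the siNONO libraries. The groups were far apart, with the lowest siNONO library several-fold above the highest siControl library. The log2 fold change was 2.82 (SE 0.0703, edgeR adjusted p = 2.6e-11), a fold of 7.08 with a 95% interval of 6.37 to 7.87. Within the Sets it was 2.76, 2.62 and 3.14. Among the 17000 genes tested DDX58 ranked 29 from the top by log2 fold change.

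IFIH1, the gene of MDA5 (ENSG00000115267, chr2:163123584-163175194, minus strand), was nearly level with DDX58 in both groups. Its TPM values were 6.15, 5.26 and 6.24 in siControl and 36.9, 31.4 and 37.0 in siNONO. Nothing overlapped, and its Sets were the most alike of the strongly raised genes, at 2.59, 2.59 and 2.62 on the log2 scale. The fitted log2 fold change was 2.61 (SE 0.0496, edgeR adjusted p = 2.79e-12), or 6.09-fold with a 95% interval of 5.65 to 6.56. The ratio of DDX58 to IFIH1 in TPM was 1.04 ± 0.180 in siControl and 1.15 ± 0.0283 in siNONO (mean ± SD, n = 3). The log2 fold change of DDX58 was above that of IFIH1 in each Set, by 0.16, 0.03 and 0.52. The difference was 0.24 ± 0.254 (mean ± SD over the 3 Sets), which is within the spread between Sets.

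DHX58, which encodes LGP2 (ENSG00000108771, chr17:40253422-40264732, minus strand), was the least abundant of the 3 RIG-I-like helicases and rose less. Its estimated counts were 49, 25 and 24 in siControl and 114, 90 and 128 in siNONO, so its precision was the lowest of the set. In TPM these were 2.41, 1.47 and 1.58 against 4.34, 3.49 and 5.96, with every siNONO library above every siControl library. The log2 fold change was 1.74 (SE 0.197, edgeR adjusted p = 1.29e-05), or 3.34-fold with a 95% interval of 2.48 to 4.49. On log2(TPM + 1), limma gave a log2 difference of 0.98 for the same gene, and the cause was not tested. In all 3 Sets the log2 fold change of DDX58 was above that of DHX58, by 1.38, 0.87 and 1.14, and DDX58 went from 3.46 ± 0.783 times the TPM of DHX58 in siControl to 9.13 ± 1.80 times in siNONO.

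**Figure D2:**
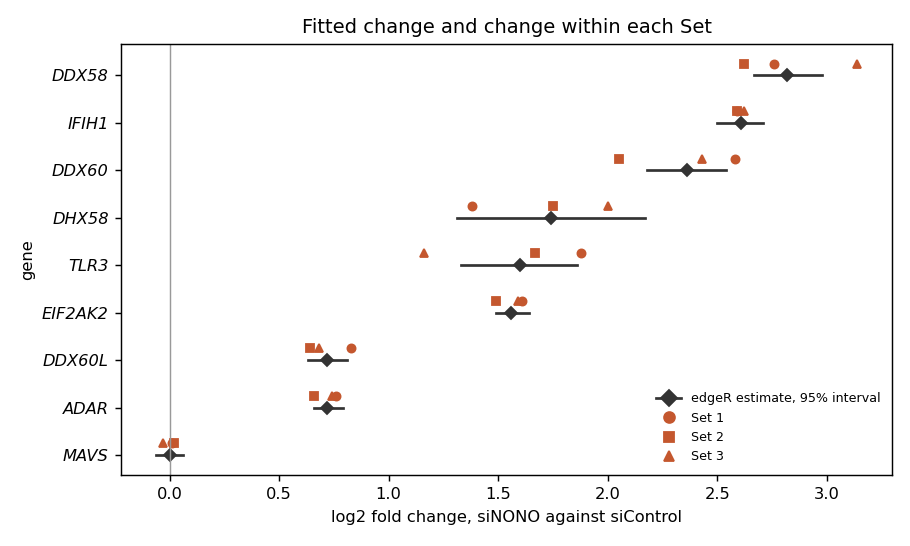
Log2 fold change of the 9 tested sensor genes, siNONO against siControl. Black diamonds and bars are edgeR's estimates with 95% intervals, and orange circles, squares and triangles are the changes within Sets 1, 2 and 3. DDX58 and IFIH1 lie highest at 2.82 and 2.61, and MAVS lies at 0.00.

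MAVS (ENSG00000088888, chr20:3827446-3856770, plus strand) did not follow its receptors. It was at 44.3, 43.3 and 47.5 TPM in siControl and at 42.0, 41.2 and 43.5 TPM in siNONO, and the groups overlapped. The log2 fold change was 0.00 (SE 0.0284, edgeR adjusted p = 0.9785), and the 95% interval of the fold ran from 0.959 to 1.04. With at least 8436 reads in every library, its SE was the smallest among the members. Its sign is not fixed, since scaling by library size alone or fitting TPM put it below 0, without a call in either.

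DDX60 and its neighbour on chromosome 4, DDX60L, are paralogs that differed in level and in response. DDX60 (ENSG00000137628, chr4:169137442-169240034, minus strand) was at 4.12, 5.78 and 3.25 TPM in siControl and at 18.2, 12.8 and 19.0 TPM in siNONO. It rose by 2.36 on the log2 scale (SE 0.0823, edgeR adjusted p = 3.775e-10), or 5.13-fold with a 95% interval of 4.53 to 5.81. On log2(TPM + 1), limma gave 1.72. All siNONO libraries were above all siControl libraries for this gene on either scale.

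DDX60L (ENSG00000181381, chr4:169277886-169458937, minus strand) was far more abundant in siControl cells, at 47.0, 48.7 and 51.7 TPM, and reached 59.6, 54.9 and 57.8 TPM with siNONO. From the counts its log2 fold change was 0.72 (SE 0.0428, edgeR adjusted p = 4.70e-08), or 1.65-fold with a 95% interval of 1.55 to 1.76. On the TPM scale it was smaller, 1.17-fold between the group means and 0.22 by limma on log2(TPM + 1). The difference between these scales goes with the transcript length that RSEM assigned to the gene, which is given further on. In TPM, DDX60 was 0.0897 ± 0.0279 of DDX60L in siControl and 0.289 ± 0.0490 in siNONO, and the log2 fold change of DDX60 exceeded that of DDX60L by 1.75, 1.41 and 1.75 in the 3 Sets. Of the 50-base stretches of the annotated transcripts, 0.66% for DDX60 and 0.40% for DDX60L also occur in another gene of the files, so few reads could be split between the pair. Both carry the same capital letters in the promoter stretches printed above.

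TLR3, the endosomal receptor (ENSG00000164342, chr4:186990065-187009227, plus strand), was at 2.31, 2.75 and 3.99 TPM in siControl and at 8.85, 7.78 and 7.36 TPM in siNONO. The groups did not overlap, although the Sets were less alike than for most members, at 1.88, 1.67 and 1.16 on the log2 scale. The fitted log2 fold change was 1.60 (SE 0.121, edgeR adjusted p = 3.85e-07), or 3.02-fold with a 95% interval of 2.52 to 3.63. HCT116 cells thus held TLR3 mRNA at a low level in both groups, behind the DDX58 and IFIH1 levels with siNONO.

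EIF2AK2, the gene of PKR (ENSG00000055332, chr2:37326353-37384665, minus strand), combined a high level with a clear rise. It was at 37.6, 42.4 and 37.2 TPM in siControl and at 114, 101 and 110 TPM in siNONO, so that every siNONO library stood above every siControl library. The log2 fold change was 1.56 (SE 0.033, edgeR adjusted p = 6.65e-12), or 2.96-fold with a 95% interval of 2.81 to 3.11, and the Sets gave 1.61, 1.49 and 1.59. Exons of EIF2AK2 overlap ARL14EPP1 and GPATCH11 on the opposite strand over 3.6% and 0.3% of its exon bases. No other member shares exon bases with a gene of the files.

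ADAR, the editing enzyme (ENSG00000160710, chr1:154554171-154600489, minus strand), was the most abundant member in both groups. Its TPM values were 104, 109 and 114 in siControl and 165, 151 and 170 in siNONO, and the groups did not overlap. The log2 fold change was 0.72 (SE 0.030, edgeR adjusted p = 1.92e-09), or 1.65-fold with a 95% interval of 1.58 to 1.73. PKR mRNA rose by more than ADAR mRNA in each Set, by 0.84, 0.83 and 0.85 on the log2 scale, and its TPM went from 0.360 ± 0.0307 of that of ADAR in siControl to 0.669 ± 0.0232 in siNONO.

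ZBP1 (ENSG00000124256, chr20:56178902-56195632, minus strand) had an estimated count of 0 in 5 libraries and of 1 in the siNONO library of Set 1. No fold is given for it. Its death-signalling partner RIPK3 likewise had 1 read, in a siControl library, and was not tested.

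**Figure D3:**
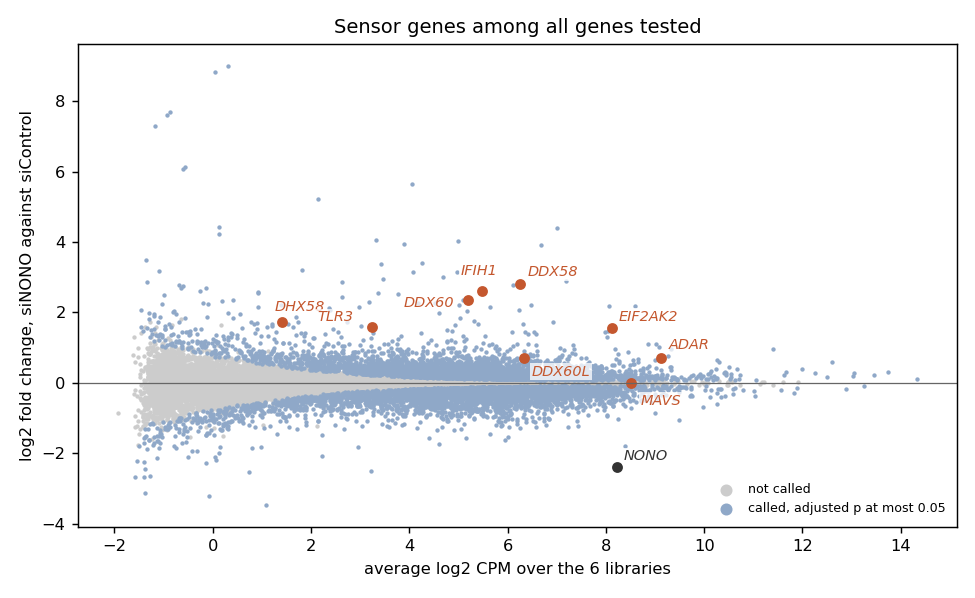
Log2 fold change, siNONO against siControl, of all 17000 genes tested against their average log2 CPM over the 6 libraries. Called genes are blue and others grey, with the 9 tested sensor genes in orange and NONO in black. DDX58, IFIH1 and DDX60 lie at the upper edge of genes of like abundance, and MAVS lies at 0.

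By log2 fold change from the top of 17000 genes, DDX58 ranked 29, IFIH1 36, DDX60 44, DHX58 84, TLR3 106 and EIF2AK2 114, while ADAR and DDX60L ranked 650 and 654. The library-scaled counts (CPM) of every siNONO library were above those of every siControl library for 8 of the 9 tested members, beside 23.9% of all genes tested. Steps in the order of fold changes count as separated where the upper gene's lowest Set passed the lower gene's highest Set. They were separated between EIF2AK2 and ADAR and between DDX60L and MAVS. They were also separated, by narrow margins, between IFIH1 and DDX60 and between DDX60 and DHX58. DDX58 and IFIH1, DHX58 and TLR3, TLR3 and EIF2AK2, and ADAR and DDX60L overlapped on this measure. Within each Set, DDX58 was still above IFIH1, by 0.16, 0.03 and 0.52.

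The genes whose log2 fold changes in the 3 Sets lay nearest to each strongly raised member were found among 13340 genes of an average log2 CPM of at least 1, by the root mean square difference over the 3 Sets. For DDX58 these were ISG15, a ubiquitin-like modifier, PARP9 and IFIT2, at differences of 0.10, 0.115 and 0.188. PARP10 and PARP9 were among those nearest to IFIH1, at 0.206 and 0.246. Nearest to DDX60 were SP110, OAS3, which makes the messenger that activates RNase L on duplex RNA, and HERC5, the ligase that attaches ISG15, at 0.115, 0.197 and 0.200.

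EIF2AK2 had PSMB9, a subunit of the immunoproteasome, at 0.0549, and RPIA and CRLF3 at 0.0936 and 0.104. The gene EGR3 lay nearest to TLR3 at 0.127, followed by TRIM34 at 0.159 and PSMB9 at 0.261. For DHX58 the nearest were SYT15-AS1, TRIM21 and GPD1, at 0.129, 0.137 and 0.159. Each likeness rests on 3 Sets, and the siControl library of a Set enters every change in that Set.

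The other genes of these pathways were taken as 7 lists, each counted in the same fit. Beside the 8 of 9 for the sensors, each of these lists held calls in both directions, and their medians lay between -0.17 and 0.19 on the log2 scale.

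**Figure D4:**
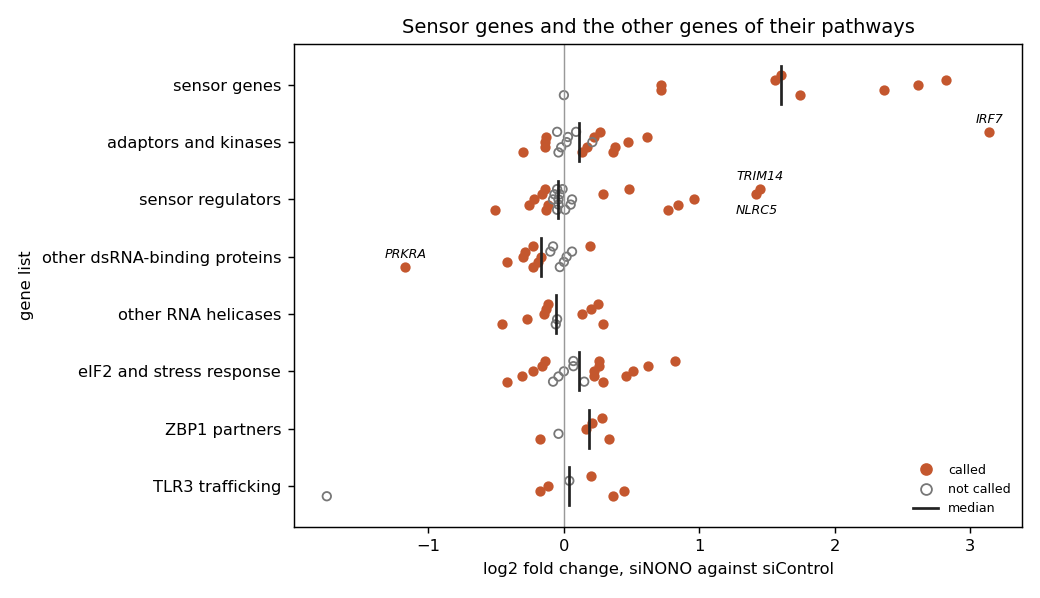
Log2 fold change, siNONO against siControl, of the tested genes of the sensor set and of 7 pathway lists. Filled points were called at an edgeR adjusted p of at most 0.05, open points were not, and black bars are medians. The sensor median is 1.60, and the list medians lie between -0.17 and 0.19, with IRF7, TRIM14, NLRC5 and PRKRA the called genes beyond 1 in either direction.

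Downstream of MAVS and TLR3, 9 of 20 adaptors and kinases were called higher and 4 lower, beside 23.2% and 23.4% of all genes tested, with a median log2 fold change of 0.11. The count lower is near the share over all genes. IRF7, the transcription factor that amplifies interferon output, was the largest. It was at 7.43, 7.33 and 8.53 TPM in siControl and at 54.1, 45.9 and 69.6 TPM in siNONO, with no overlap, a log2 fold change of 3.14 (SE 0.0789, edgeR adjusted p = 2.68e-11). TICAM1, the adaptor of TLR3, rose by 0.61 (SE 0.0588, edgeR adjusted p = 3.03e-06), from a mean of 11.4 to 16.4 TPM. IRF3, the constitutive partner of IRF7, and TBK1, the kinase of both, gave log2 fold changes of 0.03 and -0.02 and were not called. They were named after their values were seen. Without the block 6 genes were called higher and 1 lower. With TPM in place of counts, limma found 3 higher.

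Among regulators of RIG-I, MDA5 and MAVS, 7 of 25 tested were called higher and 7 lower, with a median of -0.04. Both counts are near the shares over all genes, 23.2% higher and 23.4% lower. The raised genes included TRIM25, the ubiquitin ligase long tied to RIG-I, which went from 72.1 ± 7.82 to 132 ± 12.1 TPM (mean ± SD, n = 3) with a log2 fold change of 0.96 (SE 0.0329, edgeR adjusted p = 3.5e-10). TRIM14, which binds MAVS, rose by 1.45 (SE 0.0387), from 14.8 ± 0.300 to 38.1 ± 2.25 TPM. NLRC5, better known as the transactivator of MHC class I genes, rose by 1.42 (SE 0.0716), from 5.64 ± 0.321 to 11.9 ± 4.11 TPM. The helicase-like protein ZNFX1 and the antiviral zinc-finger protein ZC3HAV1 rose by 0.84 and 0.77. The edgeR adjusted p was 4.13e-11 for TRIM14, 1.12e-08 for NLRC5, 3.82e-09 for ZNFX1 and 3.74e-09 for ZC3HAV1. Without the block 3 regulators were called lower.

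Of 15 tested genes for other proteins with a double-stranded RNA-binding domain, 8 were called lower, 1 higher and 6 in neither direction, with a median of -0.17, beside 23.4% of all genes called lower and 23.2% higher. PRKRA, which encodes PACT, an activator of PKR and a partner of Dicer, was at 52.6, 51.3 and 49.7 TPM in siControl and at 21.8, 22.7 and 22.1 TPM in siNONO. It fell by 1.17 on the log2 scale (SE 0.0489, edgeR adjusted p = 1.98e-09), and the Sets gave -1.17, -1.17 and -1.18. ADARB2, a brain relative of ADAR, was listed at 0 in all 6 libraries. The single call higher was lost without the block and without either library of Set 3, where 0 genes were called higher.

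Of the other RNA helicases proposed as sensors or cofactors, 4 of 11 were called higher and 5 lower, all by less than 0.5, beside 23.2% and 23.4% of all genes tested. DHX33 was the furthest down at -0.46 (edgeR adjusted p = 1.32e-06) and SKIV2L, a helicase of the exosome's cytosolic cofactor, the furthest up at 0.29 (edgeR adjusted p = 0.000106). The count called lower was 3 without the block, and 3 without any one library of Set 1 or Set 2.

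The eIF2 and integrated stress response list, on which PKR acts, had 9 of 20 genes called higher and 5 lower, with a median of 0.11, beside 23.2% and 23.4% of all genes tested. The count lower is near the share over all genes. ASNS, the asparagine synthetase that ATF4 controls, went from 105 ± 9.62 to 173 ± 3.42 TPM (mean ± SD, n = 3), a log2 fold change of 0.82 (SE 0.0378, edgeR adjusted p = 4.48e-09). EIF2S3, the gamma subunit of eIF2, went from 122 ± 0.262 to 172 ± 4.38 TPM, a log2 fold change of 0.62 (SE 0.0288, edgeR adjusted p = 5.31e-09). The other eIF2 subunits did not rise with it. EIF2S2 was called lower at -0.42 (edgeR adjusted p = 1.2e-06), and EIF2S1 was not called at 0.07. They were named after their values were seen. The count called lower was 3 without the block, and 3 without the siControl library of Set 2 or of Set 3.

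Of the partners of ZBP1 in cell death, 4 of 6 tested were called higher and 1 lower, beside 23.2% and 23.4% of all genes tested. CFLAR, an inhibitor of caspase 8, and MLKL, the executor of necroptosis, gave log2 fold changes of 0.33 and 0.28 (edgeR adjusted p = 9.06e-05 and 0.00523). Genes of this list called higher numbered 2 in DESeq2 and 1 in each limma fit. The 1 call lower was absent, at 0, without the block and without any 1 of the 6 libraries. In the list for TLR3 trafficking and endosomal Toll-like receptors, 3 of 7 tested were called higher and 2 lower, beside the same shares over all genes. The chaperone HSP90B1 rose by 0.44 (edgeR adjusted p = 7.51e-08) and CTSL, a protease that cleaves endosomal receptors, by 0.36 (edgeR adjusted p = 0.000308). The Toll-like receptor TLR8 was listed at 0 in every library. The count called lower was 1 without the block, and 1 without either the siControl or the siNONO library of Set 2.

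Apart from how many reads a gene has, the deposited tables give for each library the mean length of its transcripts, weighted by RSEM's estimate of their abundance. A change in it means that reads were shared out differently among annotated transcripts. Among the 9 members with reads in every library, the groups did not overlap for 4, longer in siNONO for 3 and shorter for 1, beside 13.6% of the 14129 tested genes whose length varied. With 3 libraries a group, the smallest p the two-sided exact permutation test allows is 0.10, so no length can pass 0.05, and each of these 4 genes reached p = 0.10.

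Among the 4 genes whose groups did not overlap, DDX60L had the largest difference. Its mean transcript length was 2001, 1992 and 1858 bases in siControl and 2582, 2530 and 2427 bases in siNONO, a gain of 562.9 bases or 28.9%. This goes with its smaller change in TPM than in counts, since TPM divides by length. DHX58 went from 1080, 1066 and 1182 bases to 1438, 1408 and 1225 bases, a gain of 22.4%, although on few reads and with the siNONO library of Set 3 close to the siControl range.

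ADAR was at 5839, 5518 and 5646 bases in siControl and at 5870, 5901 and 5912 bases in siNONO, longer by 4.0%. The gene is known to have a long form from an interferon-inducible promoter and a shorter constitutive form. Levels of single transcripts were not analysed here. IFIH1 became shorter, from 3190, 3187 and 3189 bases to 3048, 3045 and 3102 bases, by 3.9% of the siControl mean, where the siControl libraries differed by few bases only. DDX58, EIF2AK2, TLR3 and DDX60 overlapped between the groups, with DDX60 the most variable, from 3435 to 5124 bases in siControl and from 4485 to 5864 bases in siNONO. MAVS held between 11720 and 11724 bases in all 6 libraries.

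**Figure D5:**
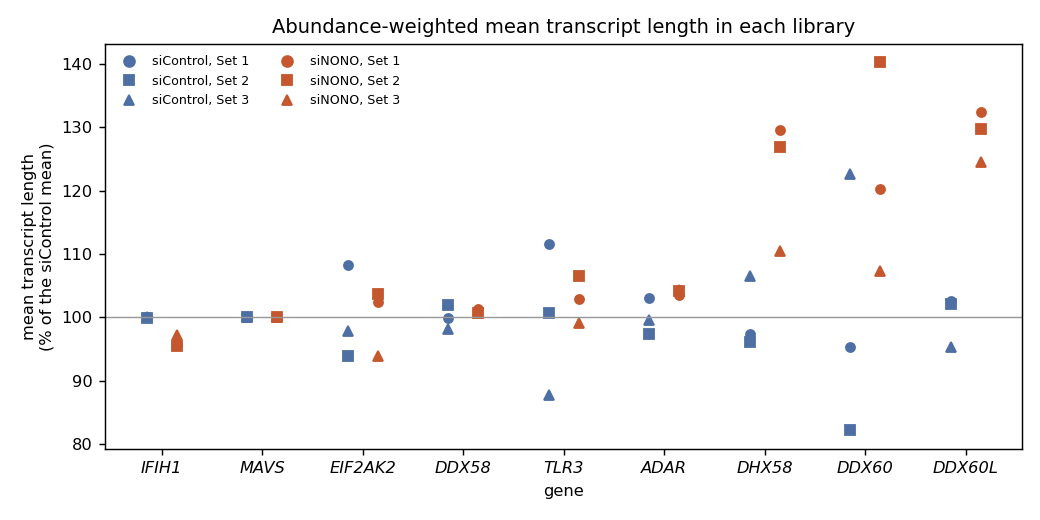
Abundance-weighted mean transcript length of 9 sensor genes in each library, as a percentage of the gene's siControl mean, for siControl (blue) and siNONO (orange), with circles, squares and triangles for Sets 1, 2 and 3. DDX60L, DHX58 and ADAR lie higher in every siNONO library than in any siControl library, IFIH1 lies lower, and the other 5 genes overlap.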

How the data were processed

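RNA was extracted with TRIzol and libraries were made with a stranded polyA kit. After trimming by sickle, the authors mapped reads by STAR to GENCODE on GRCh37 and quantified genes by RSEM (version 1.3.1). The strand setting of the counting is not given in the sources used here. They deposited, per gene and library, expected (estimated) counts, which are not normalized, TPM values, which RSEM scales for transcript length and library size, and the mean and effective transcript lengths.

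The deposited estimated counts were rounded to whole numbers and tested by the quasi-likelihood test of edgeR (version 4.0.16, set to the form of edgeR 3). TMM scaling and filterByExpr were used, and the Set entered as a block. The study's methods added batch as a confounding variable, and that the Set is this batch is an assumption. Adjusted p-values are Benjamini-Hochberg values over 17000 genes. SE is the absolute log2 fold change divided by the square root of F. The biological coefficient of variation was 3.51%. TPM was used for levels between genes, and mean transcript lengths were compared by an exact permutation test. Total counts ran from 21765393 to 32659002 per library. No pair of replicates was alike enough to be 1 library deposited again. The labels do not say how the Sets were separated, so p-values measure only the spread between these libraries.

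Of 62492 gene IDs, 99.6% matched a symbol, and 139 of 140 list genes did. Gene positions and overlaps came from a later GENCODE annotation on the same build. Promoters are those of RefSeq. Each printed stretch was placed on GRCh37 by an exact match of its whole promoter window, found once on its chromosome. DHX58 and ZBP1 had no entry.

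The members and lists were chosen with earlier results of these data known. Named were all members and NONO, from each list the called genes with an absolute log2 fold change of 0.58 or more (up to 5, otherwise the 2 largest), genes at 0 in a group, and the 3 genes nearest to each member called beyond 1, of which 1 is not reported here. The test was checked on simulated data drawn without a Set effect. There it recovered 194 of 200 changed genes, with 17 false calls among 16675 genes tested. Alternatives used DESeq2 (version 1.42.0), limma (version 3.58.1) on log2(TPM + 1) and log2(TPM + 0.1), other scalings, filters and forms of the edgeR test, no block, and each library left out in turn.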

Additional observations from a re-analysis of the deposited data

How the results depend on the processing

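The 8 members called higher and the 0 called lower held in all 16 alternative fits, and NONO kept its direction and call. Ranges of log2 fold change were 2.55 to 2.94 for DDX58, 2.39 to 2.62 for IFIH1, 1.72 to 2.53 for DDX60, 0.98 to 1.95 for DHX58, 1.18 to 1.80 for TLR3, 1.45 to 1.61 for EIF2AK2, 0.57 to 0.77 for ADAR and 0.22 to 0.77 for DDX60L. MAVS was never called, with adjusted p from 0.168 up, and turned below 0 with library size alone (-0.0145), in limma on log2(TPM + 1) (-0.0891) and log2(TPM + 0.1) (-0.0909), and over -0.00519 to 0.0179 with 1 library left out. All genes called numbered 7924 in the reported fit, 5227 in DESeq2 and 5257 and 5250 in limma on log2(TPM + 1) and log2(TPM + 0.1). Where the pairing by Set was dropped (no block), 6164 were called. Without the block the lists had 1 adaptor or kinase, 3 regulators, 3 helicases, 3 eIF2 genes, 0 ZBP1 partners and 1 TLR3 trafficking gene called lower, and 0 other RNA-binding proteins called higher. Both limma fits called 3 adaptors or kinases, 0 other RNA-binding proteins, 1 helicase and 1 ZBP1 partner higher, and 0 ZBP1 partners lower. DESeq2 called 2 adaptors or kinases, 3 helicases, 3 eIF2 genes and 0 ZBP1 partners lower, and 0 other RNA-binding proteins and 2 ZBP1 partners higher. Library size alone gave 0 other RNA-binding proteins higher, and no count filter gave 3 helicases and 0 ZBP1 partners lower. With 1 library left out, the counts ran from 0 to 1 for other RNA-binding proteins higher, and for those lower from 3 to 5 for helicases, 3 to 5 for eIF2 genes, 0 to 0 for ZBP1 partners and 1 to 2 for TLR3 trafficking. The log2 ratio of mean levels was, in CPM in place of TPM, 2.61 for IFIH1, 1.76 for DHX58, 0.00 for MAVS, 0.72 for ADAR, 1.56 for EIF2AK2, 2.36 for DDX60 and 0.72 for DDX60L, beside 2.58, 1.34, -0.09, 0.57, 1.47, 1.93 and 0.23 in TPM. The cause was not tested beyond the lengths given. The median over all genes moved to -0.09 in limma on log2(TPM + 0.1). Deviations of libraries of the same Set correlated at 0.220, 0.0612 and 0.278 over the 13340 genes whose average log2 CPM reached 1, and at 0.427, 0.253 and 0.504 over the 10840 that reached 3. At the lower limit the siNONO library of Set 2 correlated more with the siControl library of Set 1, at 0.0846.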
